A study of Rattus norvegicus with 16 samples.

Results

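The nuclear pore and nuclear transport genes were examined in rat INS1 832/13 β cells that overexpressed Pax5. The genes were taken by a rule on symbols, from the names of the nucleoporins, importins, exportins and the Ran cycle. The choice was made with earlier results of these data known. Of the 15037 gene symbols on the arrays 47 met that rule, each with 1 transcript cluster. The cells are 1 clonal insulin-secreting line from a rat insulinoma, and the study asked in them how a raised level of the transcription factor Pax5 alters gene expression. A control group received a lentivirus carrying GFP and the other group a lentivirus carrying Pax5, with 8 arrays in each group and 1 array of each kind in each of 8 numbered experiments. Both groups had a multiplicity of infection of 1.25, 24 hours with the virus and 48 hours in fresh medium at 11.1 mM glucose, and were collected at 72 hours. The lentiviral transgenes were driven by a human phosphoglycerate kinase promoter. The study describes its overexpressed proteins, Pax5 among them, as carrying an HA tag, and mentions Pax5 without the tag for repeated secretion experiments. There were 0 untransduced arrays, so every difference is between viruses, and the labels do not say whether the experiments were separate passages, so the p-values measure the spread between these experiments.

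The nuclear pore complex is a ring of proteins called nucleoporins that spans the nuclear envelope. Small molecules diffuse through it, while large cargo is carried by importins on the way in and exportins on the way out, and the small GTPase Ran, bound to GTP in the nucleus and to GDP in the cytoplasm, sets the direction of travel. In β cells the transcription factors that control the insulin genes, Pdx1 among them, enter the nucleus this way, and insulin mRNA leaves through the same pores.

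The targeted gene followed the labels. The Pax5 cluster read 7.93 ± 0.409 in the GFP arrays and 17.26 ± 0.191 in the Pax5 arrays (log2 signal, mean ± SD, n = 8 each). Medians of single arrays were 6.98 to 7.01, and the lowest correlation between arrays across clusters was 0.989. Of 9 measured β cell markers, 8 were in the brightest 10% of clusters, Iapp was higher in the Pax5 arrays and Slc2a2 and Slc30a8 were lower, and the summed log2 level of the list was 143.76 to 145.28 in GFP and 142.61 to 144.43 in Pax5 arrays. Of the 3 measured α cell markers 1 was higher, glucagon (Gcg), and the summed level was 28.85 to 29.39 in GFP and 29.69 to 30.15 in Pax5 arrays. The B lymphocyte list (3 measured, Cd79b and Ptprc in the dimmest 30%) had 1 gene higher, Blnk, and sums of 14.26 to 15.06 and 16.18 to 17.09, while both δ cell markers, the PP cell marker and 4 fibroblast markers had none that passed. Of the 2 measured proliferation markers Pcna was higher (0.21, limma adjusted p = 0.0238) and Mki67 did not pass (-0.06, limma adjusted p = 0.611), with sums of 29.47 to 30.26 in GFP and 29.89 to 30.25 in Pax5 arrays. The part of these marker shifts in the values below was not tested. Fewer cells of a type and less RNA per cell cannot be told apart on these arrays.

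Of the 47 genes, 15 fell with Pax5 (31.9%, against 16.1% of all 23188 clusters), 4 rose (8.51%, against 14.6%) and 28 did not pass the test (limma with the experiment as a block, Benjamini-Hochberg adjusted p under 0.05 over all clusters). A fit without the block ignores the pairing, and differences within experiments spread more than it allows for. Over all clusters its calls grew from 3729 to 5410 lower and from 3379 to 5174 higher. Among the 47 genes it called 23 lower and 8 higher. The 12 added, none of which passed the main test, were Kpna4, Nup42, Nup98, Nup160, Ran, Rcc1, Tnpo1 and Xpo1 (lower) and Nup62, Nup155, Nup205 and Tnpo2 (higher). With the block, changes in either direction were called for 40.4% of the genes and for 30.7% of all clusters. None of the genes was in the dimmest 30% of clusters. With those dim clusters left out and the fit repeated, 17 of the 47 genes fell and 4 rose. In that fit 22% of the remaining clusters fell and 19.3% rose. The fitted difference, Pax5 minus GFP, was below 0 for 31 genes and above 0 for 16. Its median was -0.13 on the log2 scale, beside 0.00 for all clusters, and single genes ranged from -0.72 to 0.30. Falls of at least 0.5 on the log2 scale were called for 5 genes, Nup43, Xpo5, Kpnb1, Ipo7 and Nup210 (4.71% of all clusters), and no gene rose that far (4.49% of all clusters). The GFP and Pax5 arrays did not overlap at all for 13 of the lower genes (8.62% of all clusters) and 3 of the higher ones (8.08%). Overlap does not use the pairing, and differences within experiments spread more than the groups alone would give.

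**Figure D1:**
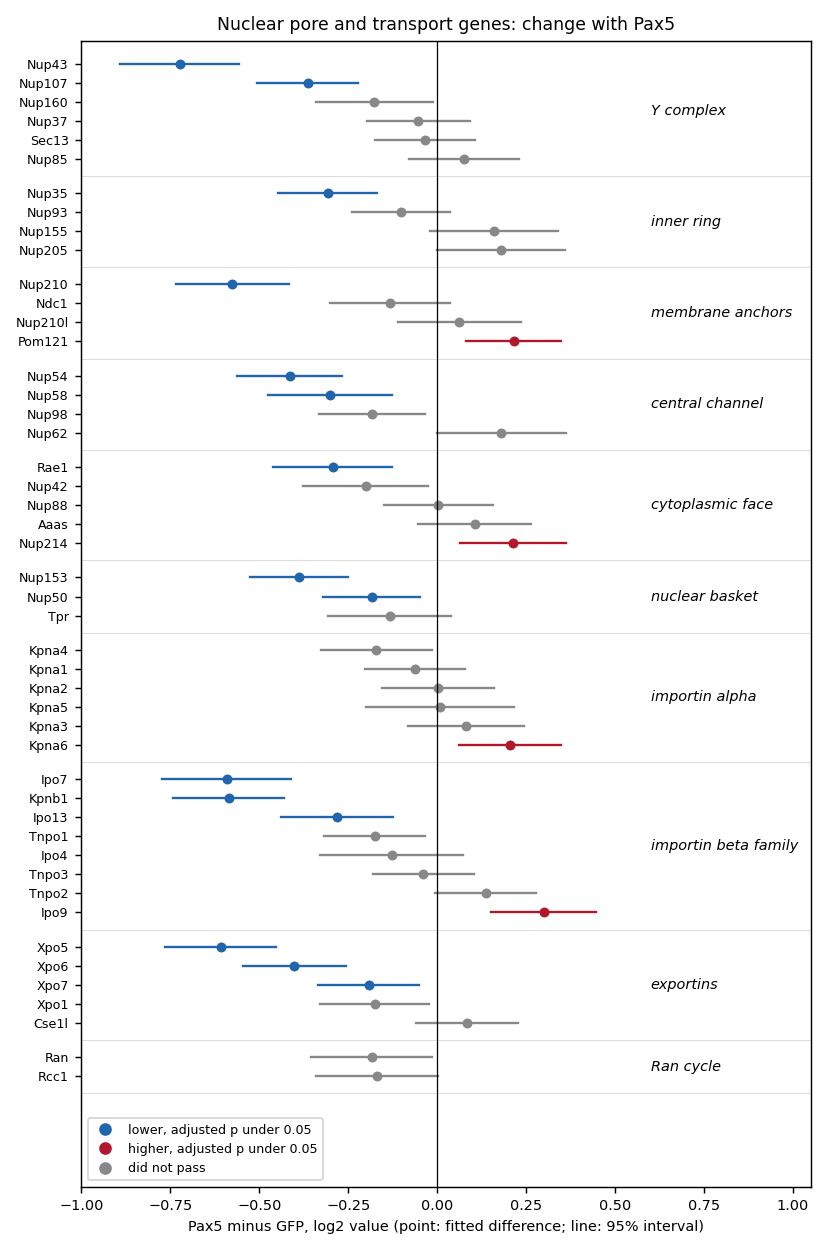
Change of each of the 47 genes, grouped by role, as the log2 difference between Pax5 and GFP arrays on the horizontal axis with its 95% confidence interval from limma (8 arrays per group). Blue points (15 lower) and red points (4 higher) passed at an adjusted p under 0.05 and grey points (28) did not, and the largest falls, of -0.72 to -0.58, belong to Nup43, Xpo5, Kpnb1, Ipo7 and Nup210 in 4 roles, with Kpnb1 and Ipo7 in 1 family.

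The Y complex builds the outer rings on both faces of the pore and starts pore assembly. Of its 6 measured members under the symbol rule 2 fell, none rose and 4 did not pass, with a median difference of -0.11. Ahctf1, which joins the complex but lies outside the rule, rose by 0.61 (limma adjusted p = 2.6e-05). Nup43, a β-propeller protein on the arm of the Y, had log2 signals of 11.98 at the lowest, 12.09 at the median and 12.26 at the highest in the GFP arrays, and 11.19, 11.40 and 11.65 in the Pax5 arrays. All Pax5 arrays lay below all GFP arrays. The difference was -0.72 ± 0.0789 (SE), 1.65-fold lower, and ranged from -1.02 to -0.40 over the 8 experiments (limma adjusted p = 3.89e-06). Nup107, in the stem of the Y, fell by 0.36 on the log2 scale (SE 0.0669, limma adjusted p = 0.000581). The other 4, Nup160 (-0.18), Nup37, Sec13 and Nup85, did not pass. The changes of Nup43 and Nup107 lay below that of Nup85 in the same complex in 8 of 8 experiments, with mean differences in log2 change of -0.80 ± 0.280 and -0.44 ± 0.125 (SD, n = 8). Such pairs, here and below, within a role or across roles, were picked after the values had been seen and are given as descriptions. Some other pairs did not keep 1 direction. Nup107 lay below Nup160 in 6 of 8 experiments, and Nup54 below Nup58 and Rae1 below Nup98 in 5 of 8. Nup214 lay above Nup88 in 6 of 8, and Ran lay below Rcc1 in 4 and above it in 3.

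The inner ring holds the pore together across the membrane, and membrane anchors span the envelope itself. In the inner ring 1 of 4 members fell, Nup35, a membrane-binding nucleoporin, and 3 did not pass. Nup35 ran from 10.06 through 10.12 to 10.26 in GFP arrays (lowest, median, highest) and from 9.72 through 9.82 to 9.95 in Pax5 arrays, so the groups did not overlap. Its difference was -0.31 ± 0.0652 (limma adjusted p = 0.00183). Its partners Nup155 and Nup205 had differences of 0.16 and 0.18 with limma adjusted p of 0.171 and 0.123. Nup35 was lower relative to Nup155 in 8 of 8 experiments, by a mean log2 change of -0.47 ± 0.302 (SD, n = 8).

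Of the 4 measured anchors 1 fell, 1 rose and 2 did not pass. Nup210, a glycoprotein whose bulk lies in the lumen of the envelope, read 10.04, 10.25 and 10.42 (lowest, median, highest) in GFP arrays and 9.52, 9.67 and 9.82 in Pax5 arrays. The groups were separate, the difference was -0.58 ± 0.0746, 1.49-fold lower, and single experiments ran from -0.79 to -0.22 (limma adjusted p = 2.28e-05). Pom121, which links the membrane to the ring, rose by 0.22 ± 0.0626 (limma adjusted p = 0.0154), with no overlap between the groups. The gap between the changes of Nup210 and Pom121 was -0.79 ± 0.153 (SD, n = 8) and had the same sign in 8 of 8 experiments. Ndc1, another membrane protein of the ring, and Nup210l, a paralog of Nup210, did not pass.

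The central channel is filled with phenylalanine-glycine repeats that form the permeability barrier, and Nup54, Nup58 and Nup62 form its core trimer. Nup54 read 10.49, 10.67 and 10.81 (lowest, median, highest) in GFP arrays and 10.10, 10.26 and 10.39 in Pax5 arrays. No array of either group reached the other group, and the difference was -0.42 ± 0.0690 (limma adjusted p = 0.000242). Nup58 fell by 0.30 on the log2 scale (SE 0.0826, limma adjusted p = 0.0109), although it was 0.15 higher in experiment 1 and the groups overlapped. Nup62, the partner of both, read 10.09, 10.35 and 10.44 in GFP and 10.35, 10.41 and 10.65 in Pax5 arrays. These ranges overlap, and its difference of 0.18 did not pass (limma adjusted p = 0.126). The change of Nup54 lay below that of Nup62 in 8 of 8 experiments, by -0.60 ± 0.276, and that of Nup58 by -0.48 ± 0.212 (SD, n = 8). Nup98, a mobile nucleoporin of both pore faces, read 12.31, 12.45 and 12.54 in GFP and 12.17, 12.23 and 12.40 in Pax5 arrays. It lay near the threshold, at -0.18 with a limma adjusted p of 0.0597.

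The cytoplasmic face receives exported mRNA. Rae1, an mRNA export factor that binds Nup98, read 10.74, 10.95 and 11.07 (lowest, median, highest) in GFP and 10.51, 10.63 and 10.81 in Pax5 arrays. It was lower in every experiment but the first, where it was 0.07 higher, and its groups overlapped. The difference was -0.29 ± 0.0785 (limma adjusted p = 0.00927). Nup214, a large nucleoporin with repeats on this face, rose by 0.21 ± 0.0702 (limma adjusted p = 0.0297), with overlapping groups, and did not pass when experiment 2, 3, 4 or 6 was left out (limma adjusted p up to 0.0949). Its partner Nup88, Nup42 and Aaas did not pass, with Nup42 at -0.20 (limma adjusted p = 0.0774).

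In the nuclear basket, the cage of filaments on the inner face, 2 of 3 members fell. Nup153, which docks incoming and outgoing carriers, read 12.72, 12.90 and 12.97 (lowest, median, highest) in GFP and 12.38, 12.50 and 12.53 in Pax5 arrays. The 2 groups were separate and the difference was -0.39 ± 0.0648, from -0.51 to -0.19 over experiments (limma adjusted p = 0.000252). Nup50, a binding partner of Nup153 that helps release import cargo, fell by 0.18 (SE 0.0640, limma adjusted p = 0.0395). Its call was lost when experiment 3, 4, 5, 6 or 7 was left out, with limma adjusted p up to 0.107. Tpr, the filament protein of the basket, did not pass. Over all 26 nucleoporins 9 fell and 2 rose, with a median difference of -0.13.

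**Figure D2:**
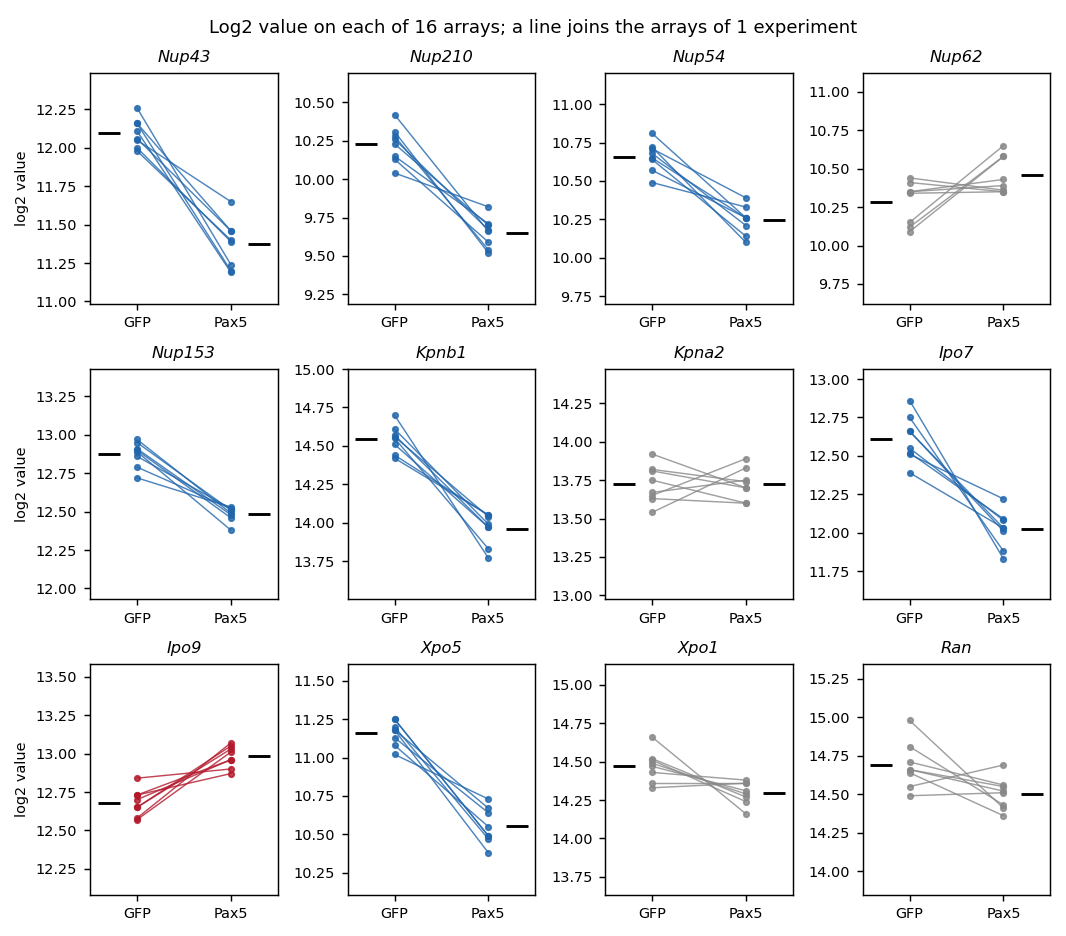
Log2 signal in each of the 8 GFP and 8 Pax5 arrays for selected genes, with lines joining the 2 arrays of an experiment, black bars at the group means, and blue for genes that fell, red for Ipo9, which rose, and grey for genes that did not pass. All Pax5 points lie below all GFP points for Nup43 (11.19 to 11.65 against 11.98 to 12.26) and above them for Ipo9 (12.87 to 13.07 against 12.57 to 12.84), whereas the points of Kpna2 overlap (medians 13.72 and 13.71).

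Importin α proteins are adaptors that bind classical nuclear localization signals, and importin β1 (Kpnb1) carries the adaptor and its cargo through the pore. Of 6 measured importin α genes 1 rose, none fell and 5 did not pass. Kpna6 read 9.81, 9.95 and 10.04 (lowest, median, highest) in GFP and 10.06, 10.09 and 10.24 in Pax5 arrays. The groups were separate by a narrow margin, with a difference of 0.20 ± 0.0673 (limma adjusted p = 0.0306). The call was lost without experiment 1, 3, 6 or 7 (limma adjusted p up to 0.0810). Kpna2, an adaptor abundant in dividing cells, read 13.54, 13.71 and 13.92 in GFP and 13.60, 13.72 and 13.89 in Pax5 arrays, a difference of 0.0025 (limma adjusted p = 0.985).

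The carrier Kpnb1 fell. It read 14.42, 14.56 and 14.70 in GFP and 13.77, 13.98 and 14.05 in Pax5 arrays (lowest, median, highest). Every Pax5 array lay below every GFP array, and the difference was -0.59 ± 0.0732, so that its level fell by 33.4%, with single experiments from -0.93 to -0.37 (limma adjusted p = 1.58e-05). Relative to the adaptor Kpna2 its change was -0.59 ± 0.152, and relative to Ran -0.40 ± 0.150 (SD, n = 8), in the same direction in 8 of 8 experiments for both. These pairs too were picked after the values had been seen.

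The importin β family also carries cargo without an adaptor, and of its 8 measured genes 3 fell, 1 rose and 4 did not pass. Ipo7, an import carrier for ribosomal proteins and histone H1, read 12.39, 12.61 and 12.86 (lowest, median, highest) in GFP and 11.83, 12.03 and 12.22 in Pax5 arrays. It fell in 8 of 8 experiments, from -1.03 to -0.29, with a difference of -0.59 ± 0.0850, 1.51-fold lower (limma adjusted p = 6.27e-05). The annotation holds 2 pseudogenes named after Ipo7, whose transcripts its probes could share. Ipo9, a carrier of core histones and ribosomal proteins, was higher, at 12.57, 12.68 and 12.84 in GFP and 12.87, 12.99 and 13.07 in Pax5 arrays. These groups were separate too, with a difference of 0.30 ± 0.0694, a rise of 23.1%, from 0.06 to 0.49 over experiments (limma adjusted p = 0.00351). The changes of Ipo7 and Ipo9 differed by -0.89 ± 0.302 (SD, n = 8), with Ipo7 the lower in 8 of 8 experiments. Ipo13, which imports components of the exon junction complex, fell by 0.28 (SE 0.0739, limma adjusted p = 0.00841). Tnpo1, the carrier of RNA-binding proteins with proline-tyrosine signals, was lower in 8 of 8 experiments at -0.18 but did not pass (limma adjusted p = 0.0594), and its paralog Tnpo2 stood at 0.14 (limma adjusted p = 0.138). Ipo4 and Tnpo3 did not pass either.

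Exportins leave the nucleus with cargo and Ran bound to GTP, and 3 of 5 measured exportins fell while none rose. Xpo5, which exports precursor microRNA hairpins, read 11.02, 11.18 and 11.25 (lowest, median, highest) in GFP and 10.38, 10.52 and 10.73 in Pax5 arrays. The groups did not overlap, and the difference was -0.61 ± 0.0732, a level that fell by 34.4%, with experiments from -0.80 to -0.29 (limma adjusted p = 1.09e-05). Xpo6, the exporter of actin bound to profilin, fell by 0.40 (SE 0.0678, limma adjusted p = 0.000275). Xpo7, a carrier of broad cargo range, fell by 0.19 (SE 0.0667, limma adjusted p = 0.0385), a call that was lost without experiment 2, 4, 6, 7 or 8 (limma adjusted p up to 0.105). Xpo1, the main exporter of proteins with leucine-rich export signals, read 14.33, 14.48 and 14.66 in GFP and 14.16, 14.30 and 14.38 in Pax5 arrays. The ranges overlap, and the difference of -0.18 did not pass (limma adjusted p = 0.0798). The change of Xpo5 lay below that of Xpo1 in 8 of 8 experiments, by -0.43 ± 0.240 (log2, SD, n = 8). Cse1l, which returns importin α to the cytoplasm, did not pass, at 0.08 (limma adjusted p = 0.390). Over the 19 carriers 6 fell and 2 rose, with a median of -0.13.

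Of the Ran cycle the symbol rule takes only Ran and Rcc1, and neither passed. Genes named for Ran outside the rule did change. Rangrf stood at -0.40 (limma adjusted p = 0.00630), Ranbp1 at -0.37 (limma adjusted p = 0.00234) and Rangap1 at -0.25 (limma adjusted p = 0.0161). Ranbp2, Ranbp6 and Ranbp17 did not pass. Ran read 14.49, 14.66 and 14.98 (lowest, median, highest) in GFP and 14.36, 14.52 and 14.69 in Pax5 arrays, with a difference of -0.18 (limma adjusted p = 0.0959), and 6 pseudogenes carry its name. Rcc1, the chromatin-bound factor that loads Ran with GTP, read 7.32, 7.51 and 7.61 in GFP and 7.10, 7.34 and 7.46 in Pax5 arrays, with a difference of -0.17 (limma adjusted p = 0.127). Both genes had overlapping groups. Over the 28 genes that did not pass, the absolute difference was at most 0.20 on the log2 scale and the ends of their 95% intervals reached from -0.38 to 0.36. Of these 28, 8 had an unadjusted limma p under 0.05. Nup42 passed without experiment 1 or 5, Nup98 without experiment 4 and Ran without experiment 8, with limma adjusted p down to 0.0339, 0.0347 and 0.0443. Pseudogenes also carry the names of Kpna1 (9), Sec13 (3) and, with 1 each, Kpna3, Kpna4, Nup35, Nup50, Rae1 and Rcc1, and their transcripts could share probes with these genes.

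Promoters were sought for the genes with called falls of at least 0.5 and for Ipo9, which rose most. Kpnb1 had no match in the promoter table. For Nup43 and Nup210 the start in that table was not the outer end of the gene, so their windows are not shown but are counted below. The promoters of the other 3, Xpo5, Ipo7 and Ipo9, are shown. Each is the 250 bases before the transcription start on the gene's strand, 5′ to 3′, from RefSeq on build GRCr8, namely chr9:22275746-22275995 (minus strand) for Xpo5, chr1:173497222-173497471 (plus strand) for Ipo7 and chr13:49414478-49414727 (minus strand) for Ipo9. Capitals mark letters that match a searched motif on either strand.
Xpo5: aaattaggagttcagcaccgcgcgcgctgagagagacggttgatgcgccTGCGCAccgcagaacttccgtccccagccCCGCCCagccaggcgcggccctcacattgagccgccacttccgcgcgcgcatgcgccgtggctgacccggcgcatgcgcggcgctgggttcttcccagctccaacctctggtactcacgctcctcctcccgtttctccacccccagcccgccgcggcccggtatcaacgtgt
Ipo7: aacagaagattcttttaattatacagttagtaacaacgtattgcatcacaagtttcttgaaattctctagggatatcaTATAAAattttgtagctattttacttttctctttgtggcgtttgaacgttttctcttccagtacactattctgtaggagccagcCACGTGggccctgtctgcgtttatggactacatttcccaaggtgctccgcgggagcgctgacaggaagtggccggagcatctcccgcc
Ipo9: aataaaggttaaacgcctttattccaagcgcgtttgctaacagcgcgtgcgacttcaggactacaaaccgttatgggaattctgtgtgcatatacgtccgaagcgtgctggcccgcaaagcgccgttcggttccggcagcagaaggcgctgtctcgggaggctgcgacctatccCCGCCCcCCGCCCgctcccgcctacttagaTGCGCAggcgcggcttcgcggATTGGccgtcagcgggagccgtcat
In the Xpo5 window TGCGCA, part of the nuclear respiratory factor consensus, begins 201 bases before the start and GGGCGG, the GC box, lies on the opposite strand at 172. The full consensus was not searched, and letters such as gcgcatgcgc in this window do not match TGCGCA and are unmarked. Counts of TGCGCA are therefore not counts of nuclear respiratory factor sites. The Ipo7 window holds TATAAA at 172 and CACGTG, an E-box, at 88 bases before the start. The Ipo9 window holds GGGCGG on the opposite strand at 76 and 69, TGCGCA at 46 and CCAAT on the opposite strand at 25. GC content was 68.8% for Xpo5, 43.6% for Ipo7 and 60.8% for Ipo9.

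The windows searched ran from 250 bases before to 50 after the start, on both strands, and 41 of the 47 genes matched the promoter table, 12 of the 15 lower genes among them. Median GC content was 62.7% in the 41 genes, 65.2% in the 12 lower genes and 52.3% in all 27457 promoters. The E-box CACGTG was in 5 of 41 (12.2%), 3 of the 12 lower (25%) and 6.65% of all promoters. TGCGCA was in 5 of 41 (12.2%), 4 of the 12 lower (33.3%) and 7.68% of all. The GC box GGGCGG was in 25 of 41 (61.0%), 8 of the 12 lower (66.7%) and 34.9% of all. CCGGAAG, an ETS site, was in 8 of 41 (19.5%), 2 of the 12 lower (16.7%) and 9.22% of all. CCAAT was in 20 of 41 (48.8%), 4 of the 12 lower (33.3%) and 37.7% of all. TATAAA was in 4 of 41 (9.76%), 1 of the 12 lower (8.33%) and 14.3% of all. TGACGTC, a cyclic AMP response element core, was in 4 of 41 (9.76%), 1 of the 12 lower (8.33%) and 3.34% of all. GCGTGAC, a core of the Pax5 recognition sequence, was in 1 of 41, the lower gene Nup50 (2.44%), against 2.09% of all. None of these motifs contains another, and each count describes letters in a window and no binding.

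The direction was shared across experiments. The median difference of the 47 genes was below 0 in 8 of 8 experiments, between -0.19 and -0.07, while the median of all clusters lay between -0.02 and 0.02. Between 27 and 34 of the 47 genes were lower in each experiment. Of the 15 lower genes, 13 were lower in 8 of 8 experiments, as was Tnpo1, which did not pass, making 14 genes (29.8%, against 10.6% of all clusters). The 4 higher genes were higher in 8 of 8 (8.51%, against 9.79%). For such genes an exact sign-flip permutation test over the 8 within-experiment differences, two-sided, gave 0.00781, the smallest p it allows. That value is fixed once all 8 differences share a sign, so it adds nothing to the counts above. For Rae1 and Nup58 the test gave 0.0234.

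**Figure D3:**
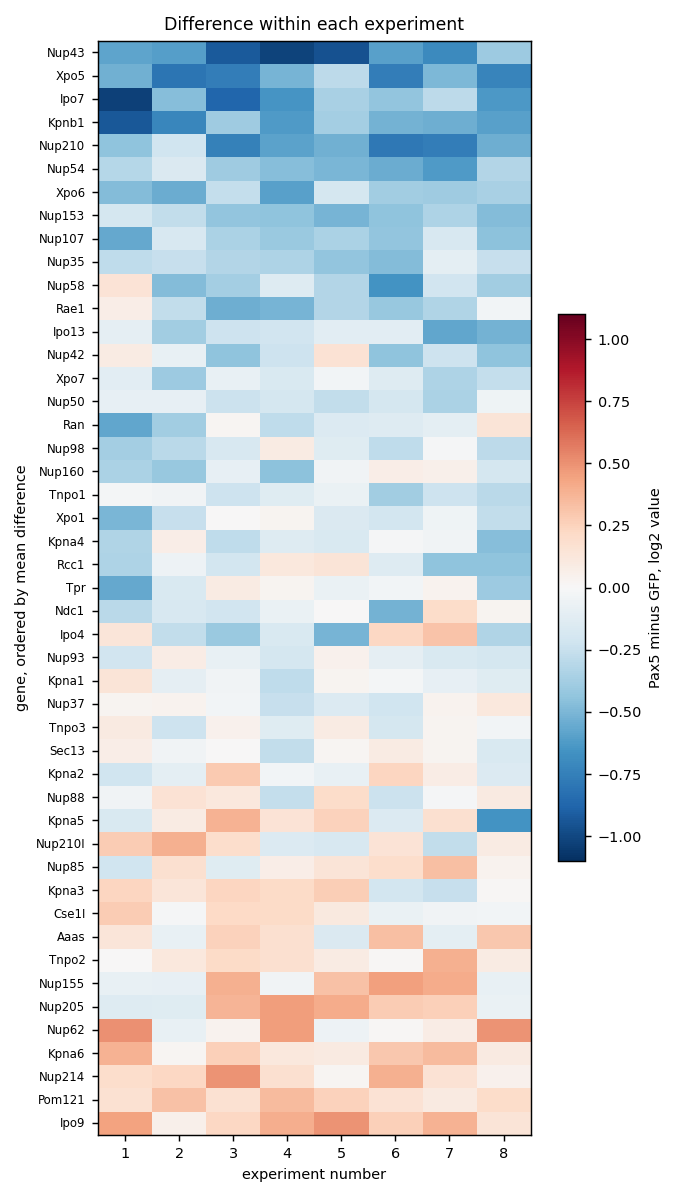
Log2 difference between the Pax5 and the GFP array of each of the 8 experiments for all 47 genes in the order of their mean difference, with blue for lower and red for higher values. The 15 genes that fell are below 0 throughout except for Nup58 (0.15) and Rae1 (0.07) in experiment 1. The 4 higher genes, Ipo9, Pom121, Nup214 and Kpna6, are above 0 in 8 of 8 experiments. Small differences, such as 0.02 for Kpna6 in experiment 2 and -0.03 for Xpo7 in experiment 5, are close to white.

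Other pore and transport genes that the symbol rule leaves out were read from a list of 41, of which 31 were measured. The list also holds genes of the nuclear envelope and lamina, and it was made with earlier results of these data known. Of these 12 fell (38.7%), 2 rose (6.45%) and 17 did not pass, with a median difference of -0.07. Over all clusters 16.1% fell and 14.6% rose, with a median of 0.00. With the dimmest 30% of clusters left out, 12 of the list fell and 2 rose, beside 22% and 19.3% of the remaining clusters. The 2 that rose were Ahctf1, which seeds pore assembly on chromatin and joins the Y complex, at 0.61 (limma adjusted p = 2.6e-05), and Lmna, a lamin of the nuclear lamina, at 0.53 (limma adjusted p = 2.4e-05). Among those that fell were Nmd3, the adaptor that links the large ribosomal subunit to Xpo1, at -0.53 (limma adjusted p = 0.000687), and Nxt2, a cofactor of mRNA export, at -0.49 (limma adjusted p = 0.000454). Senp2, a SUMO protease docked at the basket, fell by 0.44 (limma adjusted p = 0.000115) and Sun1, which connects the inner membrane to the cytoskeleton and to pores, by 0.37 (limma adjusted p = 0.000821). These 6 had the lowest adjusted p of the list.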

How the data were processed

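RNA of INS1 832/13 cells was measured on 1-colour Affymetrix arrays. The authors deposited log2 values with 2 decimals, made with Transcriptome Analysis Console and RMA per the submitters' processing notes, with versions and settings not given in the sources used here. RMA corrects background and quantile-normalizes arrays, a step that removes shifts shared by all clusters. Quantile normalization of the deposited values still moved some bright genes. Kpnb1 went from -0.59 to -0.52 and Kpna2 from 0.0025 to 0.065, while all 19 called genes kept their calls. The cause was not tested. The platform annotation names 15049 of 23188 clusters, leaves 8139 unnamed, and 10 further symbols of the role list were not analysed here.

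Differences between Pax5 and GFP arrays were fitted by lmFit and eBayes of limma 3.58.1 (R 4.3.3) with experiment as a fixed block, and p-values were adjusted by Benjamini-Hochberg over all clusters. The fit was tested on simulated data with independent noise and no experiment effect, so that test did not cover the pairing. Experiment numbers in the labels pair the arrays. Checked on the arrays, deviations from group means correlated at -0.749 to -0.704 within a number and -0.0893 to 0.259 between numbers. The numbers thus set the arrays of 1 experiment apart, but these deviated in opposite directions and not together. The pairing was taken from the labels, and differences within experiments spread more than the groups alone would give. Ranges and overlaps of groups do not use the pairing.

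The genes, lists and motifs were chosen with earlier results of these data known. Every gene could be named, with full values for the lowest p of each role, falls or rises of at least 0.5, and Nup62, Nup98, Kpnb1, Kpna2, Xpo1, Ran and Rcc1. Alternatives were no block, other scalings, weights, variance models and thresholds, the methods' paired test, and leaving out each experiment. The number of arrays limits the precision. Standard errors of single genes were 0.0626 to 0.0981.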

Additional observations from a re-analysis of the deposited data

Results flagged for a closer look

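Within a group of 8 arrays, 4 of the 94 gene and group combinations held 1 array far from the other 7, and chance gives about 1 in 20. Nup58 was lowest in the GFP array of experiment 1, at 10.49 with the nearest array at 10.75. Nup153 was lowest in the Pax5 array of experiment 5, at 12.38 against 12.46. Ndc1 was lowest in the Pax5 array of experiment 6, at 10.79 against 11.01, and Tnpo2 was highest in the Pax5 array of experiment 7, at 11.53 against 11.39. Nup58 and Nup153 kept their calls when each experiment was left out in turn.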

How the results depend on the processing

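Without the replicate block, which ignores the pairing of arrays (deviations correlated at -0.749 to -0.704 within an experiment), 23 genes were lower and 8 higher in place of 15 and 4, and 6 of the other pathway genes were higher in place of 2. At an adjusted p under 0.01, 1 gene was higher and 6 other pathway genes were lower in place of 12. Quantile normalization gave 4 other pathway genes higher, as did the methods' paired test before adjustment. Leaving out the dimmest 30% of clusters gave 17 genes lower, and trended robust eBayes gave 18. Leaving out each experiment in turn gave 13 to 16 genes lower, 2 to 4 higher, a median of -0.16 to -0.13, and 10 to 12 and 2 to 4 other pathway genes lower and higher. Without experiment 8 the last count was 4, and without experiment 3 or 6 the genes higher were 2. Nup43, Xpo5, Kpnb1, Ipo7, Nup210, Nup54, Xpo6, Nup153, Nup107, Nup35, Rae1, Ipo13 and Ipo9 (13 genes) passed under every alternative, and Kpna6, Nup214, Nup50, Nup58, Pom121 and Xpo7 failed at 0.01. Sec13 turned to 0.0395 under quantile normalization, and the near-zero differences of Kpna2 (-0.0386 to 0.0343), Kpna5 (-0.0443 to 0.104) and Nup88 (-0.0243 to 0.0414) changed sign with 1 experiment left out. The cause of these changes was not tested.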
